A study of Arabidopsis thaliana with 10 samples.

Results

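In a time course of AGAMOUS activation in Arabidopsis inflorescences, 38 array probes stood near 0 at 4 h and on the negative side at 8, 10 and 16 h. They were chosen on the measured values. A probe entered if it was measured on all 8 arrays of treated plants, if the mean of the 2 arrays of 4 h lay between -0.1 and 0.1, and if the mean was at or below -0.15 at each of 8, 10 and 16 h. Of 10816 probes, 10523 were measured on all 8 of these arrays, 8303 of them lay inside the window at 4 h, and 38 met every condition. The same rule with the late sign exchanged gave 22 probes. A further 97 probes were at or below -0.15 at all 4 treated times, 4 h included. No gene is paired with a probe in the files, and 0 identifiers matched the RefSeq table of Arabidopsis names. The probes are therefore given by their identifiers, and neither a function nor a tissue marker could be assigned to any of them.

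Every array compared dexamethasone-treated plants with plants that received the control solution over equal hours, on a cDNA array made mainly of floral transcripts. All plants, the controls included, were ag-1 mutants that carried 35S::AG-GR, so both channels share the loss of the native gene and the presence of the transgene. The series holds 10 arrays, array 1 and array 2 of each time (0, 4, 8, 10 and 16 h), which differ in the channel that carried the steroid-treated sample. The labels do not say whether these 2 arrays used separate plants or the same RNA, so that p-values measure the spread between arrays, which may be technical.

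AGAMOUS encodes a MADS-box regulator of stamen and carpel identity that also ends the growth of the floral meristem. In the ag-1 mutant, petals form in place of stamens and a new flower forms in place of the carpels. Fused to the hormone-binding part of the glucocorticoid receptor, the protein is held in the cytoplasm until dexamethasone lets it enter the nucleus. The 35S promoter drives the fusion in most plant cells and not only in the whorls where the native gene is active. In bulk inflorescences, fewer cells of a type and less RNA per cell cannot be told apart.

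The deposited values are log ratios of the channels, read as base 10, which is not stated. Folds hold only under that reading. Arrays numbered 2 were turned in sign, so that one direction means the same on every array. Which channel was the numerator is not given in the sources used here, and the negative side may mean a lower or a higher level with dexamethasone. Between 10128 and 10670 values were measured per array after values at exactly 2 and -2 were set aside. Over all probes, array 1 of 0 h stood apart from the other 9 arrays, with r between -0.0367 and 0.0479. Values at 0 h are therefore given per array in most places. Where a mean of the 2 arrays of 0 h is given, it includes that array. As deposited, treated arrays of the same number correlated at 0.362 to 0.702 over probes and those of different numbers at -0.0626 to 0.179. The ratios thus hold a large part shared by arrays of the same number. Whether that part goes with the channel, the treatment or anything else these arrays share was not tested. The turning by labels is a choice that these correlations do not settle. The number of arrays limits the precision of every value below.

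At 0 h the 38 probes had a median turned ratio of 0.0346 (37 probes measured on both arrays). The median was -0.0669 at 4 h, reached -0.263 at both 8 and 10 h, and stood at -0.296 at 16 h. Over all probes measured on the treated arrays the medians lay between -0.00396 and 0.00224 at every time. The rule used the values of 4 to 16 h, so these describe the choice and test nothing. Averaged over 8, 10 and 16 h, the late mean ran from -0.178 to -0.644 with a median of -0.269, which in base 10 is 1.51-fold for the smallest, 4.40-fold for the largest and 1.86-fold for the median. A size of 2-fold was reached by 15 of the 38. The step from 4 h to the late mean ran from -0.104 to -0.618 with a median of -0.214. At 4 h, 37 of the 38 lay below 0 and 1 (2.63%) above it, where 48.1% of all probes measured on the treated arrays lay above it. That share includes probes outside the window. At or below -0.05 stood 23, for which no share of all probes was counted. The rule used these values, and nothing is read from either count.

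**Figure D1:**
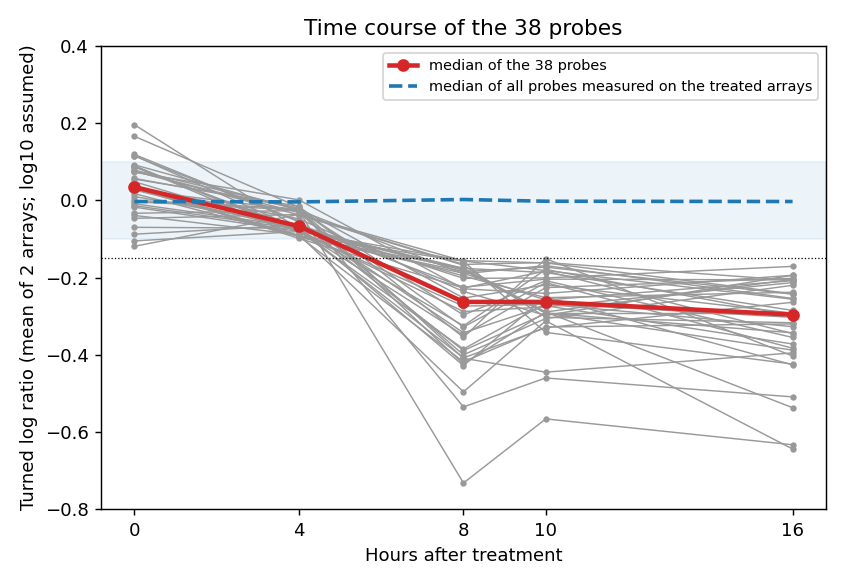
Turned log ratio (mean of the 2 arrays of a time, vertical axis, log10 assumed) against hours after treatment for each of the 38 probes (grey lines), with their median (red) and the median of all probes measured on the treated arrays (blue, dashed). The shaded band is the window of -0.1 to 0.1 and the dotted line the threshold of -0.15; the red line goes from 0.0346 at 0 h to -0.296 at 16 h while the blue line stays near 0.

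The lowest late mean was that of GP112A1, at -0.644. Its turned ratios on array 1 and array 2 were -0.0598 and -0.00692 at 0 h, 0.304 and -0.356 at 4 h, -0.763 and -0.701 at 8 h, -0.490 and -0.642 at 10 h, and -0.796 and -0.469 at 16 h. All 6 late values lay below both 4 h values and both 0 h values, but the 4 h values stood far apart, on opposite sides of 0. GP087A5 had 0.313 and 0.0203 at 0 h, 0.135 and -0.169 at 4 h, -0.626 and -0.444 at 8 h, -0.435 and -0.485 at 10 h, and -0.721 and -0.298 at 16 h. The late values again lay below both earlier times with no overlap, and the 4 h arrays again differed in sign. GP011C11 had -0.0715 and -0.00660 at 0 h, -0.257 and 0.0785 at 4 h, -0.613 and -0.379 at 8 h, -0.304 and -0.319 at 10 h, and -0.578 and -0.710 at 16 h. Here the 4 h arrays were split the other way, with array 1 on the negative side, and the late values lay below both.

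Of the next probes in order of late mean, GP098H8 stood at -0.417, GP094H9 at -0.416 and GP093B10 at -0.368. GP093B10 had 0.0187 and -0.0363 at 0 h, 0.00913 and -0.148 at 4 h, -0.453 and -0.403 at 8 h, -0.220 and -0.281 at 10 h, and -0.551 and -0.301 at 16 h. Its 2 arrays of 4 h lay closer together than those of the probes before it, and all late values lay below them. GP007H2 followed at -0.355, GP071E1 at -0.334, GP070F2 at -0.330 and GP094B11 at -0.325. On the arrays numbered 1, all 10 of these probes had every late value below that of 4 h. On the arrays numbered 2, GP094H9, GP007H2, GP071E1 and GP094B11 had at least 1 late value above that of 4 h. For GP094H9 that value was -0.351 at 4 h against -0.274, -0.319 and -0.300 at 8, 10 and 16 h, so on the arrays numbered 2 alone it shows no step after 4 h.

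At the edge of the rule, 3 probes lay just inside by the highest of their late means. GP042H4 had -0.1574 at 8 h, GP004A3 had -0.1562 at 8 h and GP073G8 had -0.1508 at 10 h. Just outside were GP063C3 with -0.1481 at 10 h, GP007A5 with -0.1479 at 8 h and GP118D9 with -0.1478 at 10 h. GP073G8 and GP063C3 fell on different sides through their 10 h values, which lay close together. At 8 h they had -0.355 and -0.4358, and at 16 h -0.4026 and -0.2061. The list thus ends inside a continuous run of values.

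At 4 h, array 2 gave lower ratios than array 1 in most of the 38. On array 1 of 4 h the turned ratios ran from -0.268 to 0.406 with a median of 0.0289, and on array 2 from -0.501 to 0.135 with a median of -0.159. The 2 arrays lay on opposite sides of 0 in 26 of 38 probes, where 57.8% of all probes and 65.7% of those inside the window did so, a share near that of the members. Array 1 was positive and array 2 negative in 22 of the 38 (57.9%), against 33.6% of the probes inside the window. Taken alone, array 2 put 19 of the 38 at or below -0.15 already at 4 h, against 6.34% of the 8303 probes inside the window. Array 1 put 4 of the 38 at or below -0.15, for which no share of the window probes was counted. It put 11 at or above 0.15, against 11.6% of the probes inside the window. Applied with array 2 as the only array of 4 h, the rule gave 25 probes, 10 of them among the 38, and with array 1 alone it gave 74, of which 18 were among the 38. Which of the 2 arrays comes closer to the plants' state at 4 h was not tested. Nor was it tested whether the channels of the 4 h arrays are as labelled, on which every 4 h mean rests. If those of 1 of the 2 were exchanged, the rule would give 69 probes, 17 of them among the 38. For these probes the word delayed describes the mean of 2 arrays.

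**Figure D2:**
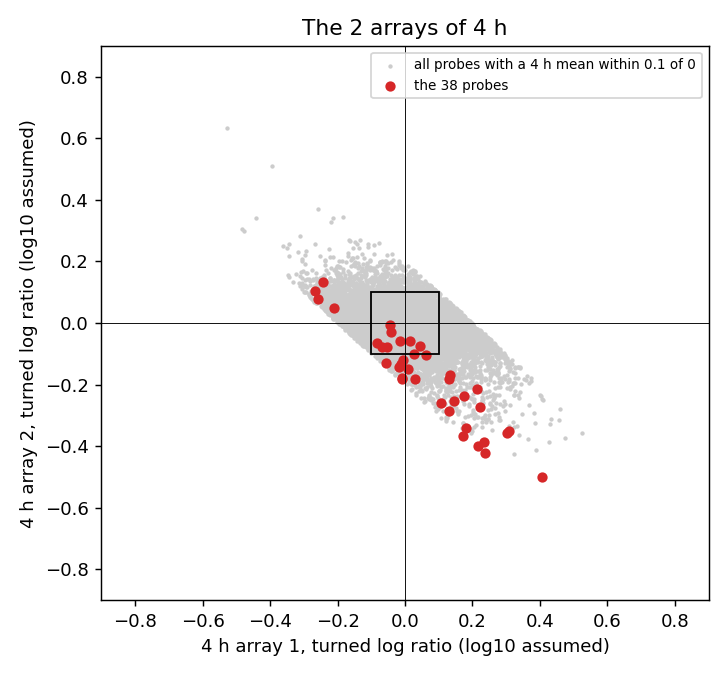
Turned log ratios of 4 h on array 1 (horizontal axis) and array 2 (vertical axis), both log10 assumed, for all 8303 probes whose 4 h mean lay inside the window (grey) and the 38 probes (red). The square marks values within 0.1 of 0 on both arrays; 8 red points lie inside it, and 22 lie at the lower right, positive on array 1 and negative on array 2.

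The part of a ratio that goes with the channel was taken as the mean of the 2 deposited ratios of a time without turning, which the rule did not use. At 4 h this channel part was positive in 31 of the 38 (81.6%), with a median of 0.0845, and its size exceeded 0.1 in 21. Over all probes it was positive in 53.7% with a median of 0.00958, and its size exceeded 0.1 in 30.9%. The channel part was positive in 20 of 38 at 8 h, in 27 at 10 h and in 13 at 16 h, against 55.7%, 54.0% and 55.4% of all probes. Its medians in the 38 were 0.0159, 0.0314 and -0.0814. The 97 probes at or below -0.15 at all 4 treated times showed a like 4 h value, with 76.3% positive and a median of 0.0850. In those 97 the median at 4 h was -0.130 on array 1 and -0.293 on array 2, so array 2 was the more negative array of 4 h in both sets. The 22 probes of the positive side had 54.5% positive with a median of 0.0127. These sets share the arrays, and differences between them were not tested.

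A comparison added after the values were seen asked whether the channel part of a probe at 4 h differed from that at 8, 10 and 16 h, with treatment terms in the same fit. That fit has as many 4 h terms as arrays of 4 h. Its standard errors and p-values thus hold the spread of the late arrays and none at 4 h. By limma with Benjamini-Hochberg adjustment over 10523 probes, 2 probes passed in all, which is 0.019%, and 1 of them was among the 38. This was GP094H9, with a difference of 0.448 (SE 0.0501, limma adjusted p = 0.0359). Its turned ratios of 4 h were 0.309 and -0.351, a channel part of 0.330, and at the late times array 1 was the lower of the 2 each time. The call was lost without array 1 of 8 h, array 2 of 8 h, array 1 of 10 h, array 2 of 10 h or array 2 of 16 h. At an unadjusted p under 0.05 stood 15 of the 38, against 9.08% of all probes. The median difference was 0.106 in the 38 and -0.0100 over all probes.

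On both arrays of 4 h, 8 of the 38 probes lay within 0.1 of 0, where 37.8% of all probes and 47.9% of those inside the window did. In these 8, both arrays taken singly lie in the window at 4 h. Their late means were -0.308 for GP082B9, -0.303 for GP073G8, -0.286 for GP102G6, -0.229 for GP067H8, -0.216 for GP043A2, -0.212 for GP066G9, -0.198 for GP042H4 and -0.178 for GP044E7. The median late mean was -0.223 in these 8 and -0.279 in the other 30. These 8 were singled out after their values were seen.

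GP082B9 had turned ratios on array 1 and array 2 of -0.0205 and 0.0208 at 0 h, 0.0150 and -0.0589 at 4 h, -0.388 and -0.268 at 8 h, -0.251 and -0.174 at 10 h, and -0.453 and -0.312 at 16 h. All 4 early values lay within 0.1 of 0 and all 6 late values well below them, so that times up to 4 h and times from 8 h did not overlap on either array. GP066G9 had -0.0379 and 0.0580 at 0 h, -0.0523 and -0.0766 at 4 h, -0.335 and -0.115 at 8 h, -0.182 and -0.226 at 10 h, and -0.154 and -0.257 at 16 h. Its late values were smaller and again did not overlap with the earlier ones. GP044E7 had -0.0195 and -0.219 at 0 h, -0.0427 and -0.0299 at 4 h, 0.0387 and -0.371 at 8 h, 0.0305 and -0.353 at 10 h, and -0.0688 and -0.346 at 16 h. This probe met the rule through the arrays numbered 2 alone, since its late mean on those numbered 1 was 0.000103.

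Agreement of the 2 arrays at the late times was not fixed by the rule, which used their mean, although a mean on the negative side favours it. All 6 late arrays were on the negative side in 33 of 38 probes, against 5.24% of all probes, a share that the rule itself raises and from which nothing is read. Another 4 probes were negative on 5 of 6 arrays and 1 on 4 of 6. At or below -0.15 on each of the 6 arrays stood 11 of 38, a count that the rule also raises and for which no share of all probes was counted. On the arrays numbered 1, every late value lay below that of 4 h in 35 of 38, against 24.1% of all probes. On those numbered 2 this held in 21, against 29.6%. The rule used these values through their means, and nothing is read from either share. All 6 late values lay below both 4 h values in 13 of 38, against 1.82% of all probes, a share that the rule also raises. On the single arrays the median of the 38 was -0.302 on both arrays of 8 h, -0.196 and -0.307 at 10 h, and -0.368 and -0.269 at 16 h.

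**Figure D3:**
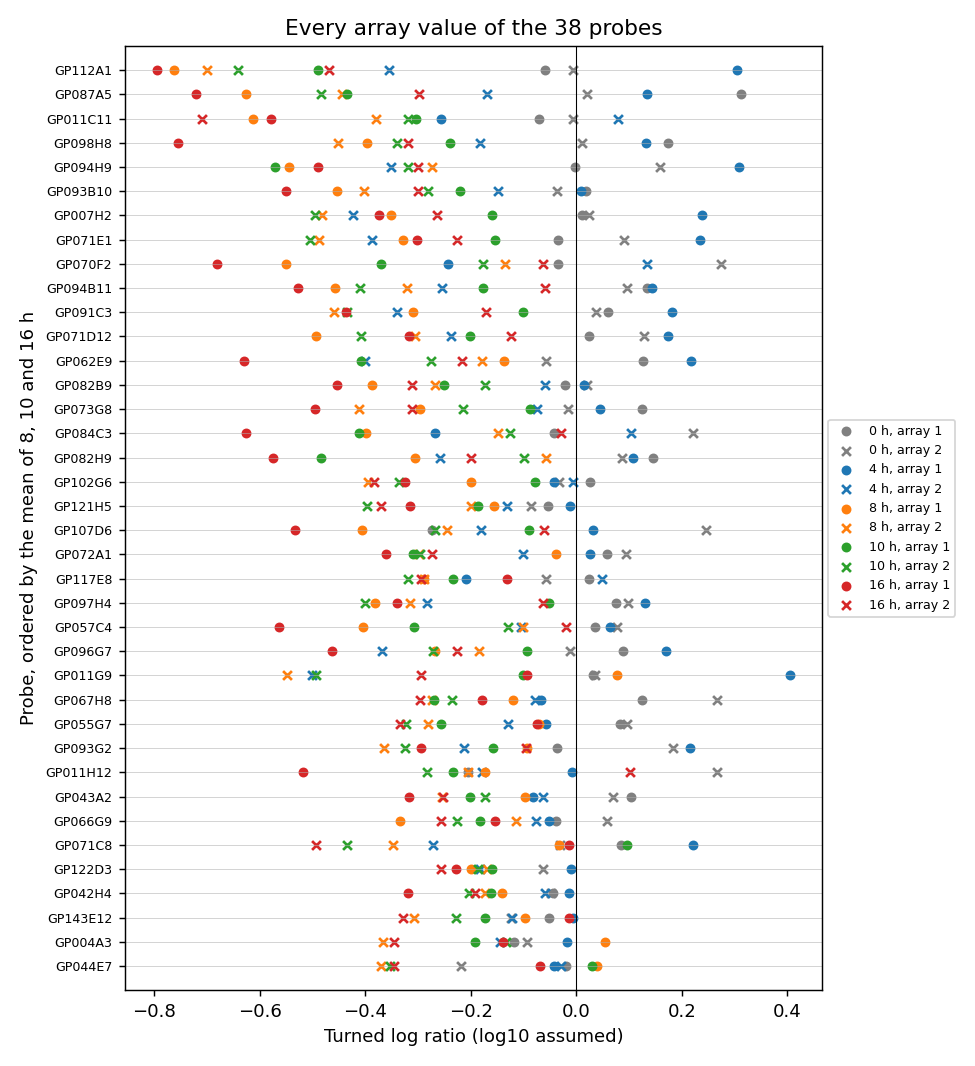
Turned log ratio (horizontal axis, log10 assumed) of each of the 38 probes on every array, with probes ordered from the lowest late mean at the top. Circles are arrays numbered 1, crosses arrays numbered 2, and colours the time; the blue circles and crosses of 4 h lie far apart in many rows, while late values lie to the left of 0 on all 6 arrays in 33 rows.

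Probes differed in which array number carried the late value. The late mean was lower by at least 0.1 on the arrays numbered 1 in 11 probes, lower by at least 0.1 on those numbered 2 in 10, and within 0.1 in 17. Over the 38 probes the late means of the 2 numbers had r = -0.0231, a description over probes picked for a low mean of the 2, which by itself lowers such an r. GP070F2 had -0.550, -0.370 and -0.681 on the arrays numbered 1 and -0.136, -0.177 and -0.0634 on those numbered 2 at 8, 10 and 16 h. The opposite case was GP071C8, with -0.0319, 0.0956 and -0.0138 on the arrays numbered 1 and -0.347, -0.434 and -0.494 on those numbered 2. On the arrays numbered 2, GP070F2 was thus above -0.15 at 8 and 16 h, and on those numbered 1, GP071C8 was above it at every late time.

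The smallest spread over the 6 late arrays was found in GP122D3, GP042H4, GP067H8, GP117E8 and GP043A2. GP122D3 had 6 late ratios between -0.257 and -0.159. On array 1 of 0 h it stood at the limit value and was not measured, and its 4 h ratios were -0.00999 and -0.182. Thus the probe with the steadiest late ratio already had on array 2 of 4 h a value inside its late range. GP117E8 had -0.288 and -0.288 at 8 h, -0.233 and -0.320 at 10 h, and -0.132 and -0.294 at 16 h, with -0.209 and 0.0480 at 4 h. Its 4 h value on array 1 also lay inside its late range.

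**Figure D4:**
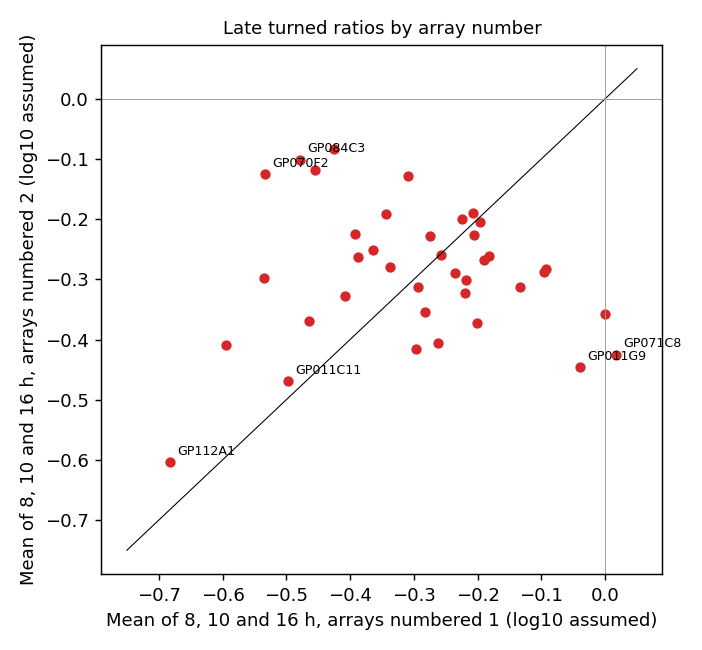
Late mean of each of the 38 probes over 8, 10 and 16 h on the arrays numbered 1 (horizontal axis) and on those numbered 2 (vertical axis), both log10 assumed, with the line of equality. Points spread to both sides of the line, with GP070F2 and GP084C3 low on number 1 and GP071C8 and GP011G9 low on number 2, and GP112A1 low on both.

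Tests of a channel part shared by all 8 treated arrays bear on the same point. By limma, 2 of the 38 passed, GP011G9 at 0.266 (SE 0.0764, limma adjusted p = 0.0348) and GP071C8 at 0.227 (SE 0.0576, limma adjusted p = 0.0219), against 17.5% of all 10523 probes. That fit counts a treatment effect as spread, which raises p-values for probes such as these. With treatment terms fitted, 6 of the 38 passed, against 28.0% of all probes. They were GP070F2 and GP084C3 on the negative side and GP011G9, GP071C8, GP143E12 and GP044E7 on the positive side. For GP084C3 the late arrays numbered 1 gave -0.398, -0.413 and -0.626 and those numbered 2 gave -0.149, -0.125 and -0.0290.

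The rule did not fix the difference between 8 h and 16 h, which had both signs among the 38 and passed the test in none of them. The lowest of the late means stood at 8 h in 13 probes, at 10 h in 6 and at 16 h in 19. The ratio was lower by at least 0.1 at 16 h than at 8 h in 8 probes, higher by at least 0.1 in 3 and within 0.1 in 27. For 16 h minus 8 h, limma called 0 of 38 and 0.0% of 10545 probes, with 0 of 38 at an unadjusted p under 0.05 against 0.721% of all. The array number as a block also gave 0 calls. The median difference of the 38 was -0.0344, against -0.00523 over all probes measured on the treated arrays. In the 38 it was -0.117 on the arrays numbered 1, where 29 of 38 were lower at 16 h, and 0.0251 on those numbered 2, where 15 were. No such values by array number were computed over all probes. Whether this split is particular to the 38 was not tested.

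GP062E9 had the lowest difference between 16 h and 8 h. Its values were -0.137 and -0.179 at 8 h, -0.408 and -0.276 at 10 h, and -0.630 and -0.217 at 16 h, a difference of -0.265 (SE 0.193) that did not pass and lay mostly on array 1. GP082H9 differed by -0.206 (SE 0.177), GP121H5 by -0.165 (SE 0.0959) and GP072A1 by -0.149 (SE 0.104). GP121H5 had the smallest standard error of these, with -0.156 and -0.20 at 8 h, -0.187 and -0.397 at 10 h, and -0.316 and -0.370 at 16 h. In the other direction, GP071D12 differed by 0.180 (SE 0.145), GP097H4 by 0.147 (SE 0.159), GP071E1 by 0.143 (SE 0.186) and GP112A1 by 0.0991 (SE 0.189). Each of these differences was within 2 standard errors of 0.

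The 2 arrays of 0 h took no part in the rule. On array 1 the 38 probes ran from -0.274 to 0.313 with a median of 0.0232 (37 measured), and 21 were positive, against 52.5% of all probes. On array 2 they ran from -0.219 to 0.274 with a median of 0.0298, and 23 of 38 were positive, against 45.6% of all. The 0 h mean lay within 0.1 of 0 in 30 of 37, which is 81.1% against 85.7% of all probes. By limma, 0 of 37 were called at 0 h, where 0.0% of 9912 probes were, and the block also gave 0 of the members and 0.0% of all probes. At an unadjusted p under 0.05 stood 1 of 37, against 1.98% of all probes. This was GP067H8, at 0.196 (SE 0.0659, limma adjusted p = 1.0), with 0.125 and 0.267 on the 2 arrays. Its 4 h values were -0.0678 and -0.0788 and its late values ran from -0.296 to -0.120, on both array numbers with 0 h positive and the later values negative. Both 0 h arrays were positive in 14 of 37 probes, against 26.0% of all probes, and both negative in 7, against 28.4%. With both 0 h arrays positive and all 6 late arrays negative stood 13 of 37, against 1.38% of all probes, a share that the rule raises.

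For the mean of 8, 10 and 16 h against 0, limma called 19 of the 38 on the negative side, where 1.07% of 10525 probes were called on that side. With the array number as a block, the count was 36, against 2.85% of all probes. The rule used this contrast, and nothing is read from these counts. Without the block, most calls were lost when array 1 or 2 of 8 h, array 1 or 2 of 10 h, or array 1 of 16 h was left out. This held among the 38 and over all probes alike.

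Some pairs of the 38 had like ratios over the treated arrays. Likeness between 2 probes was the root mean square of the differences over the 8 treated arrays, computed for all 703 pairs after the values were seen, with a median of 0.207. The closest pair was GP007H2 and GP071E1, at 0.0332. On array 1 and array 2, GP007H2 had 0.238 and -0.423 at 4 h, -0.352 and -0.483 at 8 h, -0.160 and -0.496 at 10 h, and -0.375 and -0.265 at 16 h. GP071E1 had 0.234 and -0.387 at 4 h, -0.328 and -0.488 at 8 h, -0.155 and -0.505 at 10 h, and -0.302 and -0.227 at 16 h. Their largest difference on any treated array was 0.0727, although they lie on different plates, and no other probe in the table was as close to GP007H2. GP091C3 lay next, at 0.0637 from GP007H2 and 0.0661 from GP071E1.

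Next after the closest pair came GP042H4 and GP043A2 at 0.0493, GP055G7 and GP143E12 at 0.0536, and GP055G7 and GP067H8 at 0.0564. On the 0 h arrays, which took no part in the choice, these pairs lay 0.134, 0.182 and 0.125 apart, where the median over pairs of the 38 was 0.121. At 0 h they were thus no closer than the median pair. GP070F2 and GP084C3 were 0.0648 apart over the treated arrays, with differences of up to 0.152 on a single array, and 0.0378 apart at 0 h. GP007H2 and GP071E1 were 0.0574 apart at 0 h. Whether any of these pairs report the same transcript is not given in the sources used here.

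By their identifiers, which have the form of plate, row and well, the 38 probes lay on 31 of 114 plates. There were 3 on each of 2 plates, 2 on each of 3 plates and 1 on each of 26. None of the 38 adjoined another in its row or column. Of 128 measured wells that adjoin one of the 38, 4 had a late mean at or below -0.15, which is 3.12% against 2.73% of all probes, and their median was -0.00231. The lowest of these neighbours was GP011C10 at -0.531, which lies beside GP011C11 and had -0.207 at 4 h, outside the window. GP117E7, beside GP117E8, stood at -0.215 with -0.165 at 4 h. The plate medians of the late mean ran from -0.0271 to 0.0373 on the plates with members. Within plates, rows A to H held 5, 3, 5, 3, 5, 1, 7 and 9 of the 38, for which no share of all probes was counted. Subtracting the plate median from each array gave 39 probes by the rule, of which 33 were among the 38.

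Set beside the 97 probes at or below -0.15 at all 4 treated times, the 38 had smaller late values. At 4 h the mean of the 97 was -0.269 ± 0.114 (SD, n = 2 arrays). It was -0.393 ± 0.0151, -0.375 ± 0.0505 and -0.402 ± 0.0927 at 8, 10 and 16 h. That of the 38 was -0.0577 ± 0.160 (SD, n = 2 arrays) at 4 h, and -0.296 ± 0.0182, -0.265 ± 0.0621 and -0.319 ± 0.0987 at the late times. At 4 h the difference between the 2 sets came from the rules, and the spread between the 2 arrays in the 38 was larger than their mean. The rules used the late values too, and nothing is read from the late difference. At 16 h array 1 was the lower array in both sets, with means of -0.468 against -0.337 in the 97 and -0.388 against -0.249 in the 38. The sets were not compared by a test, since both were picked from these arrays.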

How the data were processed

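For each probe, the authors deposited 1 channel log ratio from every array, taken here as log10. The sources used here do not give its base, numerator, scanner, background correction or normalization. Column medians between 0.00313 and 0.0165 show centred arrays. Values of exactly 2 or -2 count as missing. The arrays numbered 2 were turned in sign by the labelled channels. Members and lists were chosen with earlier results of these data known.

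Fits used limma 3.58.1 and R 4.3.3 (lmFit and eBayes, 1 coefficient per time, all 10 arrays), two-sided, with Benjamini-Hochberg adjustment over all probes tested and a threshold of 0.05. A probe was tested if at least 8 arrays measured it, among them every array of the times compared. The channel part was fitted on the deposited ratios of the 8 treated arrays. The array number marks the channel orientation. Unturned pair means correlated at 0.252 to 0.549 in all 10 pairs of times, so the numbers were treated as pairing the arrays and entered a fit as a block. The fits were tested on simulated data, with changes of 0.2 and 0.4. Without the block, 0.0% of either size were recovered for 0 h and for 16 h minus 8 h. With the block, 40.4% and 100.0% were recovered for 0 h. For 16 h minus 8 h the block recovered 4.12% and 78.4%. For these comparisons each simulated probe had 1 channel effect, the same on all 10 arrays, with equal spread on each. In the real data array 1 of 0 h stood apart from the other arrays, so recovery for 0 h with the block may be lower than this. The gene lists and markers planned were not used, since no probe has a gene name here.

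Probes were named by a rule: the 10 lowest late means, the 5 steadiest late ratios among members negative on all 6 late arrays, the 4 largest declines and 4 largest increases from 8 to 16 h, called members at 0 h or for 16 h minus 8 h (0 in both), and 3 on each side of the threshold. Others named were chosen after their values were seen: the 8 near 0 on both 4 h arrays, calls in the channel part, alike pairs and neighbours. Descriptions used pandas 2.3.3 and numpy 2.4.6, and plots matplotlib 3.10.9.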

Additional observations from a re-analysis of the deposited data

Results flagged for a closer look

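Among the probes named by rule, 10 lay on the positive side on both 0 h arrays and on the negative side on all 6 late arrays. The direction at the late times was fixed by the choice, and the difference between 0 h and the late times was not tested for them. The 0 h means below include array 1 of 0 h, which stood apart from the other arrays. These means were 0.166 for GP087A5, 0.0922 for GP098H8, 0.0175 for GP007H2, 0.115 for GP094B11 and 0.196 for GP067H8. They were 0.0868 for GP043A2, 0.116 for GP082H9, 0.0757 for GP072A1, 0.0871 for GP097H4 and 0.0754 for GP071D12. Of all 37 probes measured at 0 h, 13 had this pattern, against 1.38% of 9859 probes, a share that the choice raises. The channel part of GP094H9 at 4 h exceeded that at 8, 10 and 16 h by 0.448, by a test of the difference itself. The spread in that test came from the late arrays alone. With 2 arrays per time, no search for outlying arrays within a time was made.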

How the results depend on the processing

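The rule gave between 25 and 74 probes with single arrays left out, the ends being without array 1 and without array 2 of 4 h. It gave 19 at a threshold of -0.2, 93 at -0.1 and 15 with a window of -0.05 to 0.05. With the other orientation, in which no array was turned, it gave 16, none of them among the 38. It gave, in alternatives chosen after seeing the data, 8 with each 4 h array inside the window and 69 with 4 h alone not turned, 17 of them among the 38. Scaling the arrays gave 31, with 21 among the 38. Of members called for the late mean, 19 at first, 8 passed with the limits kept, 36 with the replicate block and 0 with the other orientation, and between 1 and 22 without single arrays. Most calls of the first fit were lost without any 1 array of 8 or 10 h or without array 1 of 16 h. This held among the 38 and over all probes alike. Over all probes the late mean gave 156 calls, 594 with the block, 41 with the limits kept and 295 with the other orientation. Calls in the channel part, 2 at first, were 1 with plate medians subtracted, 6 with treatment terms fitted (chosen after seeing the data) and between 0 and 2 without single arrays. They were 1 without either array of 4 h or without array 2 of 16 h, and 0 without array 2 of 8 h or of 10 h. Over all probes 17.5% passed at first, 14.1% with plate medians subtracted and 28.0% with treatment terms fitted. Without single arrays between 11.7% and 14.0% of all probes did. The added comparison of the channel part at 4 h gave between 0 and 1. It could not be fitted without an array of 4 h. The counts of 0 for 0 h and for 16 h minus 8 h do not show that these probes were unchanged. Without the block a channel effect counts as spread, and the recovery given with the processing was 0.0% at both 0.2 and 0.4. With the replicate block both counts were also 0. For 16 h minus 8 h its recovery at 0.2 was only 4.12%. With the other orientation the late mean turned to 0.0595 for GP007H2, 0.0725 for GP071E1, 0.00417 for GP122D3, 0.0392 for GP067H8, 0.0414 for GP117E8, 0.0107 for GP043A2, 0.0514 for GP121H5, 0.0267 for GP072A1, 0.00100 for GP097H4, 0.0949 for GP004A3 and 0.00960 for GP073G8. Of the 23 named members, 20 then lay within 0.1 of 0, with a range of -0.204 to 0.0949 and 0 called, among them GP112A1 at -0.0395, GP011C11 at -0.0145 and GP042H4 at -0.00897. Under the other alternatives run, their late means kept their sign. With the other orientation, turned values of like size and sign on the 2 array numbers cancel in the late mean by construction. Thresholds and windows remove probes by construction. The cause of the other changes was not tested. Without an array, the lone array of that time is assumed to vary like the others. Signal over background is unknown.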
